A study of Mus musculus with 144 samples.

Results

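The cytosolic ribosomal protein genes encode the protein subunits of the ribosomes that translate nuclear messages. They are described here in the blood leukocytes and spleen cells of injured and endotoxin-treated mice. Members were all probe sets to which the platform annotation assigns a single gene symbol made of Rpl or Rps and a digit, of Rplp and a digit, or Rpsa, without the Rps6k kinases and without pseudogene symbols. 50 genes with 106 probe sets met this rule, of 18193 genes with 34945 single-gene probe sets in all. 26 of them belong by name to the large subunit and 24 to the small one. Rplp1, Rpl3, Rpl5, Rpl10, Rpl26, Rps27a, Rpl10l, Rpl36a and Rpl36al had no probe set with a single symbol, and Rps19bp1 fits the symbol rule although it encodes no subunit.

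The study placed individual mice with a burn injury, mice with trauma-hemorrhage (TH, tissue trauma with blood loss) and mice given lipopolysaccharide (LPS, a bacterial cell-wall product) beside sham mice. Burn and TH groups were sampled at 2 hr, 1 day, 3 day and 7 day, with blood leukocytes from cardiac puncture and spleen cells, both after red cell lysis. LPS groups were sampled in blood leukocytes at 2 hr and 1 day. Each injured or LPS group and its own sham group, of the same model, tissue and time, had 4 arrays, 144 in all. The labels give the strain, C57BL/6J, for the LPS arm only, and no age, sex or severity of injury was given in the sources used here. Titles of the TH blood arrays carry the word burn and descriptions of the burn spleen arrays name the TH model; the model was taken from the description in blood and from the title in spleen. No label links the blood and the spleen of a mouse.

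A ribosome joins a small subunit, which reads the message, to a large subunit, which forms the peptide bond, and most ribosomal proteins are present as a single copy per particle. On the large subunit Rplp0 carries the acidic stalk proteins Rplp1 and Rplp2, which call in elongation factors. In mammals most ribosomal protein messages begin with a run of pyrimidines, the 5′ terminal oligopyrimidine or TOP motif, through which mTORC1 controls their translation together. A few genes have near copies, such as Rps27l for Rps27 and Rpl7l1 for Rpl7, and Rps27l is a target of p53. Erythroid precursors and dividing lymphocytes are known for a high demand for ribosomes.

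The sequences below run from 15 bases before to 15 bases after the transcript start that RefSeq lists first (GRCm38.p6), and are shown to set the near copies Rps27l and Rpl7l1, which carry no long pyrimidine run over the listed first base, beside Rps27 and the stalk and large-subunit genes Rplp2 and Rpl38, which do. Capitals mark the unbroken run of C and T that covers the first transcribed base. The windows lie at chr9:66946071-66946100 on the plus strand for Rps27l, chr3:90213634-90213663 on the minus strand for Rps27, chr17:46782642-46782671 on the minus strand for Rpl7l1, chr11:114668565-114668594 on the plus strand for Rpl38 and chr7:141447636-141447665 on the plus strand for Rplp2.
Rps27l: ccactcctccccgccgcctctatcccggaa
Rps27: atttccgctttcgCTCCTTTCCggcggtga
Rpl7l1: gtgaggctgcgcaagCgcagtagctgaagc
Rpl38: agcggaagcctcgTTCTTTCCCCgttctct
Rplp2: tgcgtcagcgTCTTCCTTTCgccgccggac
The run is 0 bases in Rps27l and 1 base in Rpl7l1, against 9 in Rps27 and 10 each in Rpl38 and Rplp2. Rps27l does hold a run of 9 pyrimidines within the window, before the listed start. Of the 50 members, 44 had an entry in the RefSeq promoter table, and 13 of these (29.5%) had a run of at least 5 pyrimidines over the first base, against 2690 of 27025 genes (9.95%). Members that are no near copies, such as Rplp0, Rpl11 and Rps3, also had a run of 0 bases there. Rpl7, the parent of Rpl7l1, had no entry. The letters CCGGAAG, an ETS-type motif searched on both strands in the 250 bases before the start, stood in 17 of the 44 (38.6%) and in 1906 of the 27025 genes (7.05%), and on the minus strand (CTTCCGG) a match can share letters with a pyrimidine run. A transcript start shifted by a few bases changes the first count, so these are descriptions of the listed starts.

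Signals are the deposited MAS5 intensities in arbitrary units, and changes are injured or LPS minus sham on the log2(signal + 32) scale. The words rose and fell are kept for genes with a limma p under 0.05 after Benjamini-Hochberg adjustment over all genes tested. 1 probe set represented each gene, and 48 members were tested in blood and in spleen and 46 in the LPS arrays; Rpl3l and Rps16 were too dim everywhere, Rpl39 and Rps4l in the LPS set. The spiked hybridization controls are brighter, after scaling, on an array whose sample RNA gave little light, and 15 arrays had controls above 2 times the median of their tissue set. They are called dim below and include all 4 injured TH blood arrays of 7 day, 3 injured TH blood arrays of 3 day and 3 injured burn spleen arrays of 1 day, against 0 dim sham arrays in those comparisons. The labelled cell types were checked against defining markers: the leukocyte gene Ptprc was at 11754 or more on the blood and 8924 or more on the spleen arrays of the injury arms, and the T cell gene Cd3e and the neutrophil gene S100a8 were at 2635 and 4017 or more on those arrays. The pancreas gene Prss2 had medians of 17.7 in blood and 36.4 in spleen, and none of these markers was at 0. Messages of red cell precursors and platelets were bright in blood too. The erythroid gene Alas2 had a median of 29983 there and the platelet gene Pf4 of 14584, beside 16706 for Ptprc. In spleen these medians were 1542, 524 and 13810.

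As deposited, 59 member calls were made over the 18 comparisons, 51 rises and 8 falls, in 33 genes. The share of all genes that passed ran from 0% in LPS blood at 1 day to 49.8% in burn spleen at 1 day. Each such share is given below with the member count of its comparison. 41 of the rises lay in 2 comparisons, TH blood at 7 day and burn spleen at 1 day, and the calls outside these 2 comparisons belonged to Rps27l, Rpl7l1, Rpl12, Rps20, Rps25, Rps2 and Rpl35. 29 genes only rose, Rpl7l1 and Rpl14 only fell, Rpl12 and Rps25 did both, and 15 tested genes were never called. The remaining 2 genes were tested nowhere.

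**Figure D1:**
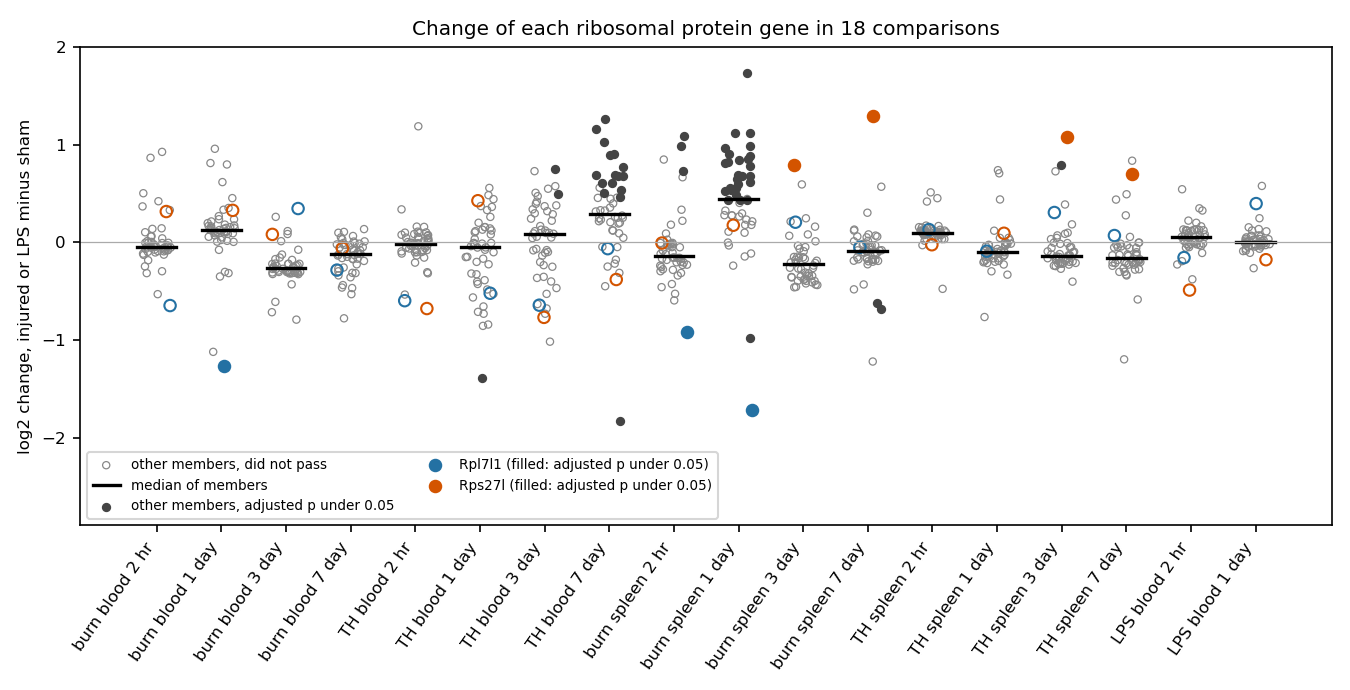
Log2 change (injured or LPS minus sham) of each tested ribosomal protein gene in the 18 comparisons, with 1 point per gene, filled where the adjusted p is under 0.05, and bars at the median of the members. The medians reach 0.29 in TH blood at 7 day and 0.44 in burn spleen at 1 day and lie between -0.27 and 0.13 elsewhere, while Rps27l (orange) and Rpl7l1 (blue) leave the cloud at other places.

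At 7 day after TH, ribosomal protein messages of both subunits read higher in blood leukocytes. 15 of 48 tested members rose and 1 fell, beside 7.96% of all genes that passed in either direction, 5.87% that rose and 2.08% that fell. The median change was 0.29, against 0.06 over all genes. 7 of 25 large-subunit and 8 of 23 small-subunit genes rose. In 11 of the 15 risers every injured array lay above every sham array. The share of all genes with such groups was not counted, and all 4 injured arrays were dim. In bulk samples such as these, fewer cells of a type and less RNA per cell cannot be told apart.

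Of the stalk genes, Rplp2 had 38236, 38393, 79116 and 50846 on the injured arrays, against 20436, 21160, 24640 and 31885 on the sham arrays. The groups did not overlap and injured replicate 3 stood highest; the change was 1.03 (SE 0.21, adjusted p = 0.00113). Rplp0, which anchors the stalk, had 14895, 11248, 29893 and 24926, against 9373, 11235, 12070 and 14887. Its groups overlapped, and it rose by 0.68 (adjusted p = 0.0279).

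Among the other large-subunit genes, Rpl38, which in mice is needed for the translation of Hox messages, had 59517, 53535, 106270 and 67163 on injured arrays, against 26248, 28164, 30407 and 40156 on sham arrays. It averaged 71622 ± 23764 after TH and 31244 ± 6180 in sham (SD, n = 4 each), a rise of 1.16 (adjusted p = 0.000363). Rpl27a, Rpl4, Rpl7a and Rpl10a rose by 0.90, 0.61, 0.68 and 0.51. Rpl11, which can bind Mdm2, and Rpl13a did not pass.

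Among the small-subunit genes, Rps29 had the largest rise, with 63236, 53225, 112980 and 67200 on injured arrays, against 24863, 26983, 29856 and 38762 on sham arrays. The lowest injured array was thus above the highest sham array, and the change was 1.26 (SE 0.22, adjusted p = 0.000259). Rps29, like Rpl38, Rps2 and Rps14, had only probe sets with the suffix x, which marks possible cross-hybridization. Rps15, Rps9, Rps3a1, Rps28 and Rps7 rose by 0.90, 0.78, 0.69, 0.69 and 0.60. Rps3, which also takes part in DNA repair, rose by 0.46 with overlapping groups (adjusted p = 0.0486). Rps6, the substrate of the S6 kinases, Rpsa, also known as the laminin receptor, and Rps19, mutated in human Diamond-Blackfan anemia, did not pass. Fau, whose product is cleaved to the small-subunit protein Rps30 and which lies outside the symbol rule, rose by 0.58 (42358 ± 4117 after TH, 28362 ± 4209 in sham, adjusted p = 0.021).

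The member that fell was Rpl14, with 139, 219, 15.6 and 349 on injured arrays, against 512, 452, 538 and 806 on sham arrays. All injured arrays lay below all sham arrays, injured replicate 3 by far the lowest, and the change was -1.83 (SE 0.48, adjusted p = 0.0126). The call was lost without injured replicate 3, in a fit on these 8 arrays alone and with the control level as a covariate, and over all settings the change stayed below 0, at -1.02 at most. All 15 rising genes had a mean signal of 10000 or more, a range that holds 32 of the 50 members and whose median change was 0.45.

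The 4 injured arrays of this comparison were all dim, with controls at 2.14 to 3.98 times the set median, against 0.913 to 1.30 on the sham arrays, so no value without dim arrays can be given. Under quantile normalization, which gives all arrays one distribution of signals, the members' median was -0.22. In that setting 0 members rose, and Rpl14 and Rps3 fell, beside 4.93% of all genes that passed in either direction. With the control level as a covariate 0 members and 0 of all genes passed, and the median was -0.03. The summed signal of 6 erythroid markers was 132860 to 250070 on the injured arrays, against 34979 to 65403 on the sham arrays, 3 of the 6 rose, and none of them was at 0. 2 of 3 cell cycle markers and 2 of 6 neutrophil markers rose too, while 0 of 5 B cell, 0 of 5 T cell and 0 of 3 NK cell markers passed. The part of these cells in the members' rise was not tested. Within the 2 hybridization days the members' median was 0.30 and 0.32, with 2 injured and 2 sham arrays each.

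**Figure D2:**
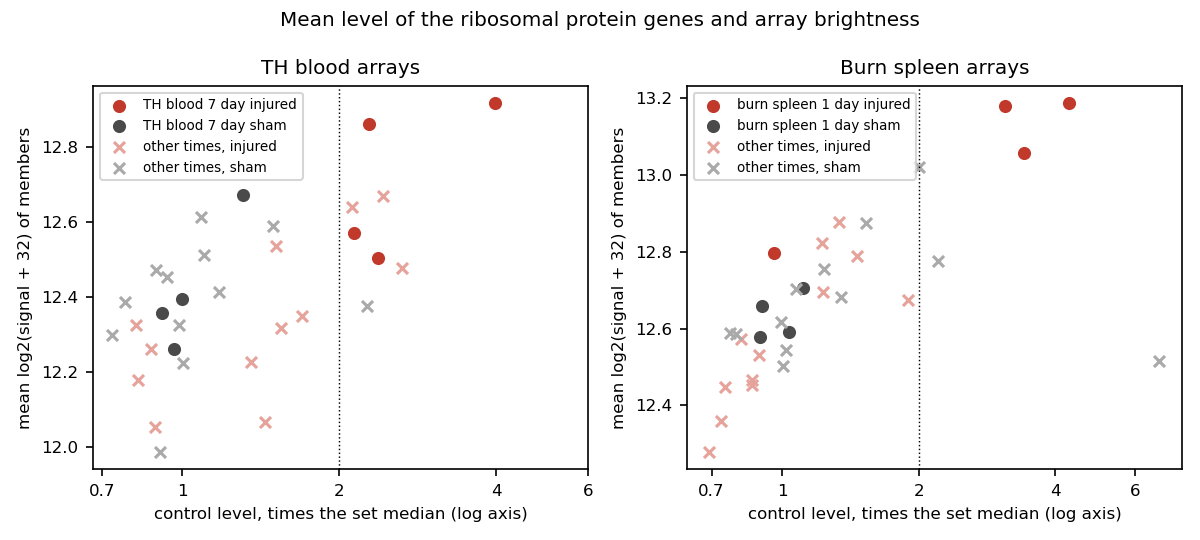
Mean log2(signal + 32) over the tested members on each array against the level of the spiked controls in times the set median (log axis), for all TH blood and all burn spleen arrays, with dots for TH blood at 7 day and burn spleen at 1 day and crosses for the other times; the dotted line at 2 marks dim arrays. The injured arrays of TH blood at 7 day lie at 12.504 to 12.917, against 12.262 to 12.672 in sham, and those of burn spleen at 1 day at 12.796 to 13.187, against 12.578 to 12.707 in sham, with 7 of the 8 injured arrays right of the line.

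At 1 day after burn, spleen cells had the most member calls of the 18 comparisons. 26 of 48 members rose and 2 fell, beside 49.8% of all genes that passed in either direction, 22% that rose and 27.8% that fell. 13 of 25 large-subunit and 13 of 23 small-subunit genes rose, with medians of 0.44 each. Of the 15 genes that rose in TH blood at 7 day, 14 rose here too, which is 93.3% of that list and 53.8% of the 26. All 15 are among the 32 members with a mean signal of 10000 or more, of which 23 rose here. Both comparisons hold dim injured arrays, and the part of signal level and brightness in this overlap was not tested.

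Rpl38 had 72098, 70480, 79489 and 29259 on injured arrays, against 29132, 25421, 26739 and 26970 on sham arrays. 3 injured arrays were far above the shams and injured replicate 4 lay beside them; the change was 1.12 (SE 0.25, adjusted p = 0.000208). Rps29 had 68387, 64523, 76388 and 27555, against 27486, 24239, 24563 and 25304, the same order of arrays, and rose by 1.12 (adjusted p = 0.000359). Rpl4, a protein of the peptide exit tunnel, had 47010, 41800, 51540 and 24695, against 24444, 21308, 22537 and 21976, and rose by 0.82 (adjusted p = 0.00142). Rplp2 rose by 0.61, Rpl11 by 0.60, Rpl13a by 0.56, Rps3 by 0.65 and Rps19 by 0.44, whereas Rplp0 did not pass. Fau rose by 0.73 (42552 ± 11466 after burn, 24872 ± 1783 in sham, adjusted p = 0.00286).

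Injured replicate 4, the one injured array of this comparison that was not dim (0.961 times the set median), was the lowest injured array for each of the genes just given by array. Leaving out the 3 dim arrays leaves 1 injured array, which is assumed to vary like the other groups of the fit. In that setting 1 member rose, Rps20 (1.14, adjusted p = 0.0177), and 1 fell, Rpl7l1, with a median of 0.18 and 21.1% of all genes passing. Quantile normalization gave 8 rises and 4 falls and a median of 0.01, at 49.9% of all genes. The rises of Rpl12, Rps25 and Rps27l and the fall of Rpl22 among them were not calls as deposited. Rps3, which rose as deposited, fell in that setting. The control level as a covariate gave 5 rises and 1 fall and a median of 0.21, at 29.7% of all genes. Of these rises, those of Rpl12, Rps25 and Rps27 were not calls as deposited. Of the lymphocyte markers, 4 of 5 B cell, 4 of 5 T cell and 3 of 3 NK cell genes fell, and the summed B cell signal was 9587 to 13256 on injured arrays, against 29097 to 33550 on sham arrays. Their part in the members' changes was not tested. Within the 2 hybridization days that this comparison spans, the members' median was 0.51 and 0.44, and Rpl38 changed by 1.39 and 0.84.

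**Figure D3:**
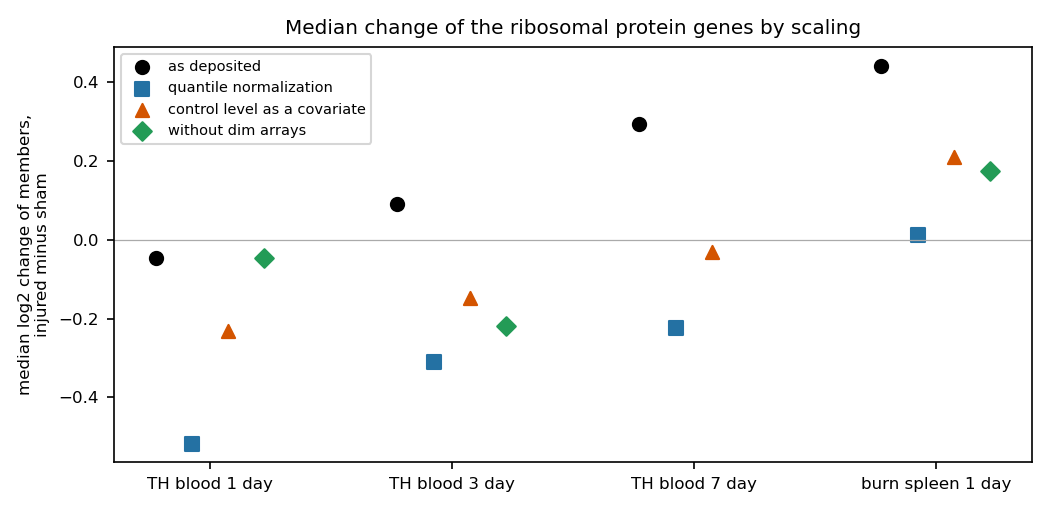
Median log2 change (injured minus sham) of the tested members in 4 comparisons under 4 treatments of array brightness. As deposited the medians of TH blood at 7 day and burn spleen at 1 day are 0.29 and 0.44, and under quantile normalization they are -0.22 and 0.01; TH blood at 7 day has no value without dim arrays.

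As deposited, Rps27l rose late in the spleen after both injuries, in comparisons in which at most 2 other members were called. At 7 day after burn its signal in injured spleens was 5778, 5934, 6291 and 3862, against 2106, 1742, 2571 and 2333 in sham spleens. All injured arrays were above all shams, with means of 5466 ± 1091 after burn and 2188 ± 353 in sham (SD, n = 4 each). The change was 1.30 (SE 0.20, adjusted p = 1.47e-06), where 1 of 48 members rose and 2 fell, beside 16.7% of all genes that passed, 8.89% that rose and 7.86% that fell. It passed under each of the 10 other settings that gave it a value and without each single array.

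At 3 day after TH the injured spleens had 6737, 7618, 6608 and 7064, against 3737, 2917, 2550 and 4246 in sham spleens. The groups were again apart, and the change was 1.08 (SE 0.20, adjusted p = 0.0002), also passing in all 10 other settings and without each array. Only 2 of 48 members passed in that comparison, Rps27l and Rps20, both of them rises, beside 7.72% of all genes, with 5.29% that rose.

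In 2 further comparisons the rise did not pass in every setting. At 3 day after burn Rps27l had 4619, 3751, 3960 and 4068, against 1748, 2313, 2595 and 2919, groups that did not overlap. The change of 0.79 (adjusted p = 0.0403) was the 1 member call at that time, beside 0.574% of all genes that passed and 0.5% that rose, and it passed in only 1 of the 8 fits that left out 1 array. Without the dim sham array it was 0.78 (adjusted p = 0.0411). At 7 day after TH the values were 5967, 6879, 3581 and 6098, against 2716, 2313, 3388 and 5930. Injured replicate 3 and sham replicate 4 crossed over, and the change was 0.70 (adjusted p = 0.0163), with 1 of 48 members passing, beside 8.07% of all genes and 5.75% that rose. Without the dim sham array it was 0.52 (adjusted p = 0.0968).

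Earlier, at 2 hr and 1 day, the spleen changes were -0.01 and 0.17 after burn and -0.03 and 0.09 after TH, none of which passed as deposited. In burn spleen at 1 day, where 3 injured arrays were dim, Rps27l rose by 0.54 under quantile normalization (adjusted p = 0.0263). In blood the changes ran from -0.77 to 0.43 after injury and were -0.49 and -0.18 after LPS, and none passed as deposited. With the control level as a covariate Rps27l rose by 0.88 in TH blood at 1 day (adjusted p = 0.0193). The test of the difference itself gave adjusted p = 0.0107 between times in TH spleen, 0.000405 between times in burn spleen, 0.000112 between blood and spleen after TH and 0.0177 between blood and spleen after burn.

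**Figure D4:**
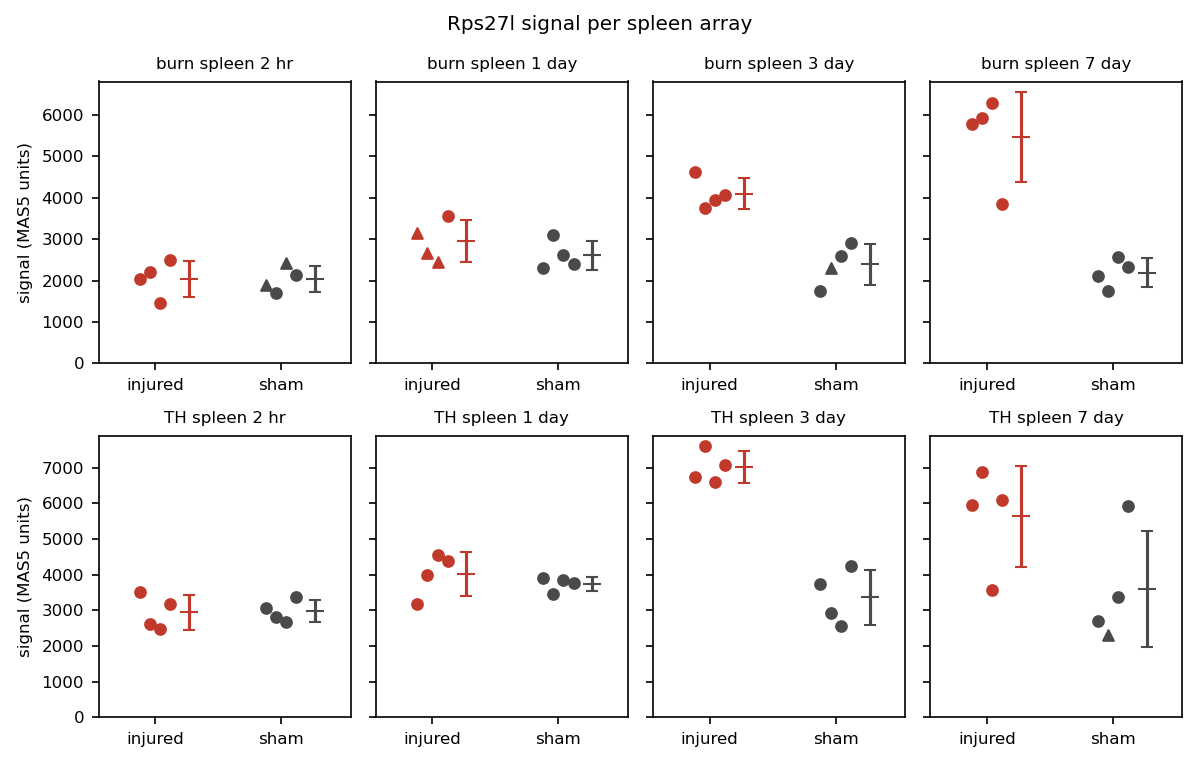
MAS5 signal of Rps27l on each spleen array, injured left and sham right, for burn (top) and TH (bottom) at 4 times, with mean and SD beside the points and triangles for dim arrays. Injured arrays lie above all sham arrays at 3 and 7 day after burn and at 3 day after TH, and the groups are mixed at 2 hr and 1 day.

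The other 2 Rps27l probe sets, which carry the cross-hybridization suffix x and may share targets with the first, rose in the same 4 comparisons, by 1.57 and 1.47 in burn spleen at 7 day and by 1.29 each in TH spleen at 3 day. Within each of the 2 hybridization days of a tissue and model the change was 1.596 and 1.00 in burn spleen at 7 day and 1.11 and 1.05 in TH spleen at 3 day. In TH spleen at 7 day it was 1.34 and 0.06. Rps27, the parent gene, had a change of -1.22 in burn spleen at 7 day (adjusted p = 0.112) and of -1.20 in TH spleen at 7 day (adjusted p = 0.177), neither of which passed, from a probe set with a mean signal of only 336.

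Erythroid and cell cycle markers rose in 3 of the 4 comparisons in which Rps27l rose. After 7 day in burn spleen 6 of 6 erythroid markers rose, summing to 41711 to 65985 in injured and 5464 to 8896 in sham spleens, and 3 of 3 cell cycle markers rose, summing to 14574 to 25112 and, in sham, to 1800 to 2811. In TH spleen at 3 day 3 of 6 erythroid markers rose, with sums of 25337 to 42113 after TH and 7032 to 29137 in sham, and 3 of 3 cell cycle markers. B cell markers fell in 4 of 5 and 3 of 5 cases in these 2 comparisons, and T cell markers in 4 of 5 both times. Of the neutrophil markers 5 of 6 rose in burn spleen at 7 day, with sums of 63857 to 98013 after burn and 20793 to 25435 in sham, and 0 of 6 passed in TH spleen at 3 day. In TH spleen at 7 day 6 of 6 erythroid, 3 of 3 cell cycle and 4 of 6 neutrophil markers rose, and 4 of 5 B cell and 3 of 5 T cell markers fell. In burn spleen at 3 day no marker of these 5 lists passed. Their part in the rise of Rps27l was not tested.

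Rpl7l1 fell early after burn, in spleen and in blood. This paralog of Rpl7 resembles a ribosome assembly factor of yeast. At 1 day after burn the injured spleens had 221, 293, 451 and 275, against 929, 1065, 1185 and 1083 in sham spleens. Every injured array was below every sham array, with means of 310 ± 98.6 after burn and 1066 ± 105 in sham (SD, n = 4 each). The change was -1.72 (SE 0.21, adjusted p = 1.19e-09), and in the 1 injured array that was not dim it was -1.83 against the shams, with the spread taken from the other groups of the fit (adjusted p = 1.33e-05).

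At 2 hr after burn the injured spleens had 668, 627, 393 and 551, against 1075, 1180, 772 and 1327 in sham spleens, again apart. The change was -0.92 (adjusted p = 0.00379), one of 4 member calls, 3 rises and 1 fall, beside 4.94% of all genes that passed, 3.82% that rose and 1.13% that fell, and it was -1.14 without the 2 dim sham arrays. In burn blood at 1 day the injured arrays had 212, 355, 289 and 181, against 555, 877, 655 and 551 in sham. The change of -1.26 (adjusted p = 0.000318) was the 1 call among 48 members where 25.7% of all genes passed and 16.4% fell. Beside the blood fall, 4 of 5 B cell, 3 of 5 T cell and 3 of 3 NK cell markers fell and 3 of 6 neutrophil markers rose, with B cell sums of 3445 to 4721 after burn and 29399 to 33542 in sham, and their part in it was not tested. Within the hybridization days the change was -1.84 and -1.596 in burn spleen at 1 day and -1.25 and -1.28 in burn blood at 1 day.

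By 3 and 7 day the spleen changes were 0.21 and -0.05, and no change of the chosen probe set passed after TH, where they ran from -0.09 to 0.31 in spleen and from -0.64 to -0.07 in blood. The effect differed between times in burn spleen (adjusted p = 1.17e-06) and in burn blood (adjusted p = 0.0165), and between burn and TH in spleen (adjusted p = 5.46e-05). Rpl7 itself was never called, with a change of 0.30 in burn spleen at 1 day (adjusted p = 0.0593).

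**Figure D5:**
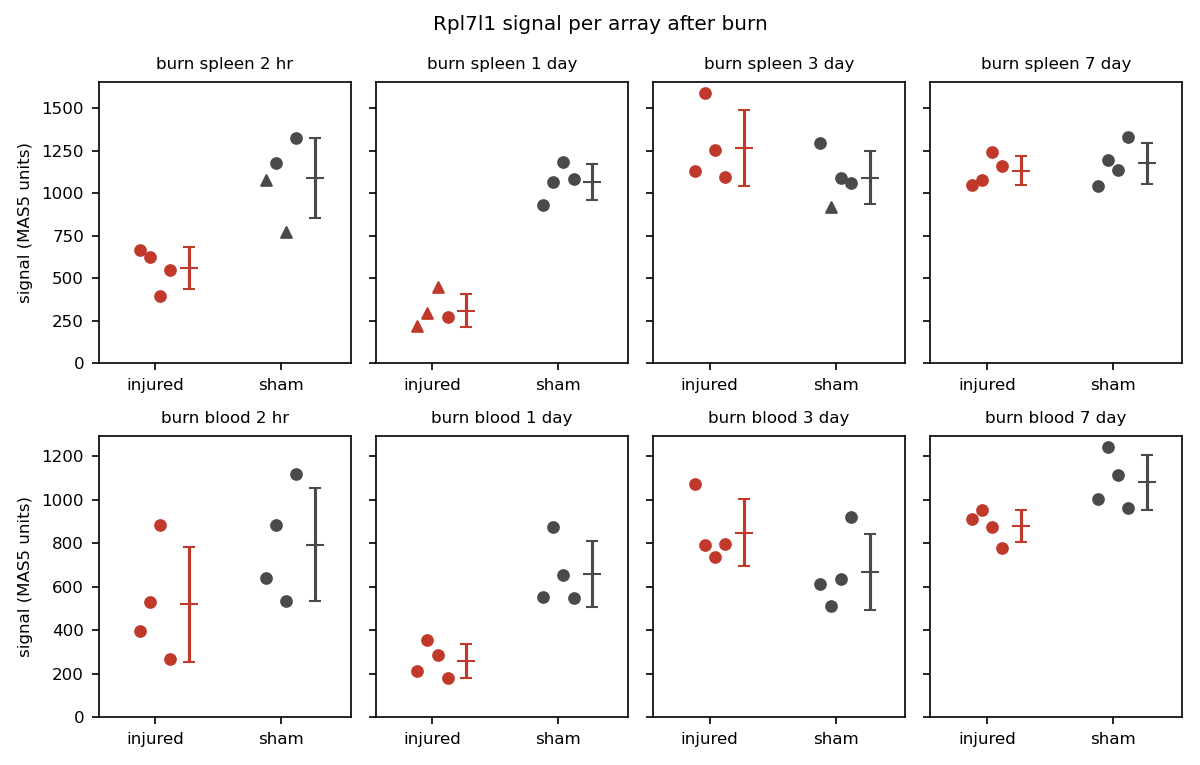
MAS5 signal of Rpl7l1 on each array of the burn arm, injured left and sham right, for spleen (top) and blood (bottom) at 4 times, with mean and SD beside the points and triangles for dim arrays. In spleen all injured arrays lie below all shams at 2 hr and 1 day and the groups mix at 3 and 7 day; in blood they are apart at 1 day, at means of 259 after burn and 659 in sham.

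The 3 probe sets of Rpl7l1 did not all move together. In burn spleen at 1 day a second probe set fell (change -1.502, adjusted p = 5.54e-08) and the third had -0.31 (adjusted p = 0.35). At 2 hr the third rose by 0.89 (adjusted p = 0.043) while the second had -0.17. After TH the third fell in blood at 1 day (change -1.01, adjusted p = 0.0367) and the second rose by 0.73 in spleen at 3 day (adjusted p = 0.0281). With the mean of all probe sets the calls in burn spleen at 2 hr and in burn blood at 1 day were lost, at changes of -0.27 and -0.41, and that in burn spleen at 1 day remained.

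Rpl12, Rps25 and Rps20, with dimmer probe sets, were called at times of their own. Rpl12, a protein near the base of the stalk, fell in TH blood at 1 day, with 148, 227, 373 and 510 on injured arrays, against 624, 1918, 548 and 622 on sham arrays. Sham replicate 2 stood far above the other shams, and the change of -1.39 (adjusted p = 0.00356), the 1 call among 48 members beside 17.6% of all genes that passed and 10.4% that fell, lost its call without that array (adjusted p = 0.0559). At 2 hr after burn the gene had 1098, 1285, 1376 and 1384 in injured spleens, against 899, 950, 230 and 770 in sham spleens, and rose by 0.99 (adjusted p = 0.0045). Without the dim sham arrays, of which replicate 3 was the low one, the change was 0.56 (adjusted p = 0.172). At 7 day in burn spleen it had 581, 720, 489 and 728, against 1005, 1007, 904 and 1180 in sham, and fell by 0.69 on the log2 scale (adjusted p = 0.0313). This fall passed in only 3 of the 8 fits that left out 1 array, and was lost under quantile normalization.

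Rps25, a small-subunit protein that internal ribosome entry sites need, ran the same way as Rpl12 in burn spleen. At 2 hr it had 4439, 3976, 2627 and 4775, against 2302, 2328, 1685 and 3130 in sham, with overlap, and rose by 0.73 (adjusted p = 0.00671). Without the dim sham arrays the members called at that time were 2, Rps20 and Rpl7l1. At 7 day it had 2117, 2238, 2100 and 2973, against 3892, 3093, 3754 and 3752 in sham, all injured arrays below all shams. That fall of 0.62 on the log2 scale (change -0.62, adjusted p = 0.00957) passed in all 10 other settings and without each array. The effect differed between times in burn spleen for both genes (adjusted p = 0.000202 for Rpl12 and 0.00022 for Rps25).

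Rps20, a protein of the small-subunit head, rose in 3 spleen comparisons from its chosen probe set, which had a mean signal of 241. In burn spleen it had 443, 413, 462 and 562 at 2 hr, against 190, 196, 243 and 185 in sham, and rose by 1.09 (adjusted p = 0.0044). At 1 day it had 532, 734, 311 and 659, against 302, 270, 236 and 323 in sham, with overlap, and rose by 0.85 (adjusted p = 0.00483). In TH spleen at 3 day it had 370, 327, 307 and 483, against 198, 230, 203 and 166 in sham, and rose by 0.79 (adjusted p = 0.0429). That call passed in only 1 of the 8 fits that left out 1 array, and was lost with no filter and under quantile normalization. The 2 probe sets of Rps20 with the suffix x had far higher mean signals, 25785 and 24581. They gave -0.38 and -0.31 in burn spleen at 2 hr and -0.20 and -0.24 in TH spleen at 3 day, none of which passed. The direction there thus depends on the probe set, whereas at 1 day in burn spleen these 2 rose by 0.97 and 0.89. The remaining probe set, with the suffix a, had 0.46 in burn spleen at 2 hr (adjusted p = 0.418) and rose by 1.10 in TH spleen at 3 day (adjusted p = 0.00881).

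Rpl14 fell in burn spleen at 1 day too, with 343, 348, 456 and 569, against 673, 1103, 778 and 949 in sham, all injured arrays below all shams. The change was -0.98 (adjusted p = 0.00142), and it did not pass without the dim arrays (1 injured array) or with the control level as a covariate. Rpl39 and Rpl39l, a gene and its paralog, rose in the same comparison by 1.74 (adjusted p = 0.0154) and 0.99 (adjusted p = 0.0409) with overlapping groups. Rpl39 had 1054, 1006, 442 and 103 on injured arrays, against 236, 154, 55.2 and 102 on sham arrays, so that injured replicate 4 lay among the shams. Without the dim arrays their changes were -0.20 and -0.27. Rps24, also a Diamond-Blackfan anemia gene in humans, was never called from its chosen probe set, which had a mean signal of 142; its 4 probe sets with the suffix x rose by 0.96 to 1.10 in burn spleen at 1 day and by 0.95 to 1.01 in TH blood at 7 day.

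In TH blood at 3 day Rps2, a protein of the message entry channel, and Rpl35 rose, 2 of 48 members beside 12.9% of all genes that passed and 4.77% that rose. Rps2 had 30169, 23220, 14853 and 34707 on injured arrays, against 11361, 14119, 17963 and 15458 on sham arrays. The 3 dim injured arrays were above all shams and injured replicate 3, which was not dim, lay among them; the change was 0.75 (adjusted p = 0.00341). Rpl35 rose by 0.49 (adjusted p = 0.0266) with the same order of arrays. With the control level as a covariate no member passed there. Without the dim arrays none passed either, in a comparison of 1 injured array with the shams whose spread comes from the other groups of the fit. Under quantile normalization 18 members fell, beside 8.54% of all genes that passed in either direction, and the median was -0.31, against 0.09 as deposited. That setting put the median of all genes at -0.08 in this comparison, against -0.21 as deposited, and at -0.07 in TH blood at 7 day, against 0.06 as deposited. TH blood at 1 day had 28 falls and a median of -0.52 under quantile normalization, beside 13.4% of all genes that passed. As deposited it had 1 fall and a median of -0.05, beside 17.6% of all genes. The injured controls there were at 1.44 to 1.70 times the set median, against 0.890 to 1.10 on the sham arrays.

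Differences between conditions were tested as such. The injury effect differed between times for 30 of 48 members in burn spleen (45.5% of all genes), 6 in TH blood (9.36%), 1 in burn blood (14.5%) and 1 in TH spleen (8.36%). In TH blood these were Rps29 (adjusted p = 0.0131), Rpl38, Rps15, Rplp2, Rps2 and Rpl27a. Between burn and TH the effect differed for 8 members in blood (19.8%), led by Rpl38 (adjusted p = 0.00772) and Rps29 (adjusted p = 0.00786), and for 4 in spleen (19.9%), Rpl7l1, Rps29, Rps7 and Rpl38. Between blood and spleen it differed for 14 members after TH (13.6%) and for Rps27l alone of the members after burn (11.2%). Without the dim arrays the counts were 6 for times in burn spleen, 1 for times in TH blood, 1 for injuries in blood, 1 for injuries in spleen and 3 for tissues after TH. All injured TH blood arrays of 7 day are dim, so the counts without dim arrays for times in TH blood, injuries in blood and tissues after TH leave out that time and are not over the same effects. Each model and tissue was hybridized on 2 days of its own that held injured and sham arrays equally, so day and model or tissue cannot be told apart in the last 2 kinds of test.

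No member was called in the remaining comparisons. In burn blood the counts were 0 of 48 at 2 hr (2.94% of all genes), 3 day (1.09%) and 7 day (2.02%), with medians of -0.05, -0.27 and -0.12, and 1, 6 and 0 members had an unadjusted p under 0.05. TH blood at 2 hr (3.24%) had 0 calls too; the median was -0.01 and 3 members had such a p. In TH spleen at 2 hr (3.98%) and 1 day (0.809%) the medians were 0.10 and -0.09, with 1 and 2 such members.

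No member passed after LPS. At 2 hr 0 of 46 members passed, beside 1.86% of all genes, and the changes lay between -0.49 (Rps27l) and 0.54, with a median of 0.06. At 1 day 0 members and 0% of all genes passed, with changes between -0.27 and 0.58 and a median of 0.00, and 3 members at 2 hr and 1 at 1 day had an unadjusted p under 0.05. The mean log2 level of the members was 10.306 to 10.393 on LPS arrays of 2 hr, against 10.131 to 10.421 on sham arrays. The difference between the 2 times passed for 0 members (0.236% of all genes). The LPS arrays carry another scale than the injury arrays, with trimmed means of 121 to 140.6 against 500, and were fitted apart.

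Of the 15 tested genes that were never called as deposited, the 5 with the brightest probe sets were Rpl22, Rpsa, Rpl19, Rps26 and Rpl7. Under quantile normalization Rpl22, Rpsa, Rpl19 and Rps26 fell in TH blood at 1 day, with changes of -0.74, -0.79, -0.75 and -0.59. In that setting Rpl22 and Rpl19 fell at 3 day too, and Rpl22 in burn spleen at 1 day. The ranges that follow are as deposited. Rpl22, which T cell development needs in mice, stayed between -0.30 and 0.23 in all 18 comparisons, Rpsa between -0.27 and 0.26, Rpl19 between -0.34 and 0.32, Rps26 between -0.22 and 0.32 and Rpl7 between -0.26 and 0.42. Rps6 stayed between -0.56 and 0.25 and Rpl22l1, the paralog of Rpl22, between -0.43 and 0.22. Rps4l and Rpl3l, paralogs of Rps4x and Rpl3, had mean signals of 35.4 and 16.1, near or under the pseudocount of 32. Rps19bp1, which encodes no subunit, ran from -0.63 to 0.39.

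Other parts of the translation machinery were counted in the same comparisons, as deposited only. In TH blood at 7 day all 4 injured arrays were dim, and in burn spleen at 1 day 3 injured arrays were. With the control level as a covariate 0 of all genes passed in TH blood at 7 day, so the calls given here for that comparison were lost in that setting. At 7 day in TH blood, where 5.87% of all genes rose and 2.08% fell, 5 of 31 elongation and initiation factors rose and 1 fell; among the risers Pabpc1, the poly(A)-binding protein, had 73095 ± 28789 after TH and 22230 ± 6057 in sham (change 1.68, adjusted p = 0.000268) and Tpt1 74122 ± 24507 and, in sham, 27194 ± 4875 (1.41, adjusted p = 0.000252). Of the 76 mitochondrial ribosomal protein genes 0 rose and 3 fell there, and of 49 ribosome biogenesis genes 0 rose and 1 fell, Nip7 (-1.04, adjusted p = 0.012). At 1 day in burn spleen, where 22% of all genes rose and 27.8% fell, 8 of 76 mitochondrial ribosomal protein genes rose and 33 fell, among them Mrpl36 with 82.2 ± 46.7 after burn and 593 ± 56.1 in sham (-2.55, adjusted p = 1.08e-13). Of the 49 biogenesis genes 13 rose and 7 fell, with the nucleolar proteins Nolc1 at -1.64 (adjusted p = 1.16e-08) and Ubtf, the RNA polymerase I factor, at -1.40 (adjusted p = 1.11e-07), and 8 of 31 elongation and initiation factors rose and 5 fell, Eif4e, the cap-binding protein, by 1.34 on the log2 scale (change -1.34, adjusted p = 1.38e-06).

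In TH spleen at 3 day, where Rps27l and 5.29% of all genes rose, 9 of 49 biogenesis genes rose and 0 fell, led by Ncl, the gene of nucleolin (8906 ± 524 after TH, 5045 ± 778 in sham, change 0.83, adjusted p = 0.000112), with Utp4 at 0.96 and Nhp2 at 1.25. 13 of 76 mitochondrial ribosomal protein genes rose and 0 fell, and 3 of 31 elongation and initiation factors rose, Eif4e among them at 0.93 (adjusted p = 0.00438). In TH blood at 1 day, where 10.4% of all genes fell, 17 of 49 biogenesis genes fell, with Heatr1 at -1.28 (adjusted p = 0.000234), and 21 of 76 mitochondrial ribosomal protein genes fell, with no rise in either list. In burn blood at 1 day, where 25.7% of all genes passed and 16.4% fell, 4 of 49 biogenesis genes rose and 7 fell and 2 of 76 mitochondrial ribosomal protein genes rose and 23 fell, among them Mrpl47 with 203 ± 72.6 after burn and 1047 ± 79.3 in sham (-2.24, adjusted p = 1.15e-08). Of 24 mTORC1 and Myc regulators 6 rose and 2 fell there, with Ddit4, an inhibitor of mTORC1, at 21734 ± 3155 after burn and 4368 ± 878 in sham (2.32, adjusted p = 1.21e-08). In burn spleen at 1 day 8 of the 24 rose and 4 fell, with Sesn1, a p53 target that restrains mTORC1, at 15485 ± 4004 after burn and 4249 ± 1472 in sham (1.88, adjusted p = 9.27e-09).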

How the data were processed

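Leukocyte and splenocyte RNA was prepared with RNeasy kits, then amplified and biotin-labelled with NuGEN Ovation reagents, per the labels' protocols. Each deposited intensity is a linear MAS5 signal that the authors made with GCOS 1.4, per the submitters' processing notes. Burn and TH arrays have trimmed means of 500, and the scaling of the LPS arrays, at 121 to 140.6, is not given in the sources used here. Of 45101 probe sets, 64 were controls, 34945 had 1 gene symbol in the platform annotation, 932 several and 9160 none, and 18031 of 18193 genes matched the current annotation. The 110 probe sets that name a ribosomal protein beside another gene were left out. A gene was read from its brightest probe set without the suffix x, where it had a choice. The suffix s, which also marks possible cross-hybridization, was not avoided. 7 members were read from a probe set with the suffix s or x. Among them Rpl22 and Rps9 were read from one with the suffix s although one without a suffix existed. The others, Rpl37, Rpl38, Rps2, Rps14 and Rps29, had only probe sets with the suffix x. 24 members had more than 1 probe set.

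A gene entered the tests if its signal exceeded the array's median on 4 or more arrays, which kept 14730 genes in blood, 13595 in spleen, 11851 in the LPS arrays and 15706 in the fit of both tissues. Values entered as log2(value + 32). limma 3.58.1 (in R 4.3.3, trended variance) was fitted to 64 blood, 64 spleen and 16 LPS arrays. Differences of effects were moderated F tests, except that between times after LPS, which was a moderated t test. p-values were adjusted by Benjamini-Hochberg over all genes of a comparison. The members, gene lists and tests were chosen with earlier results of these data known. Besides cell markers, the 5 lists are ribosomal components outside the symbol rule, elongation and initiation factors, ribosome biogenesis, mTORC1 and Myc regulators, and mitochondrial ribosomal proteins. The text names, per comparison, up to 3 rises and 3 falls with groups that do not overlap, the 3 smallest p of each difference, the most often called and the brightest never called members, a set of known regulators and paralogs, and up to 3 genes per list; other called members are named with their change.

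The code was tested on simulated data. With 4 arrays per group the precision is limited, and p-values measure the spread between these mice. Sequences and gene starts are from RefSeq (GRCm38.p6). Other settings were a pseudocount of 1, no filter, quantile normalization, the mean of a gene's probe sets, the control level as a covariate, no dim arrays, the hybridization day or the replicate number as a block, a fit on the 8 arrays of a comparison alone, and leaving out single arrays. Added after the data were seen were the brightest probe set whatever its suffix and each probe set on its own. 0 columns of per-sample values were left out.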

Additional observations from a re-analysis of the deposited data

Results flagged for a closer look

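76 groups of 4 arrays were examined for an array far from the others, and 2 had one, where chance gives about 1 in 20. In TH blood at 1 day sham replicate 2 had Rpl12 at 1918, far above the other sham arrays. In burn spleen at 7 day injured replicate 4 had Rps25 at 2973, above the other injured arrays and still below all sham arrays.

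18 differences between effects passed their own test among the members with the smallest p in each of 9 difference tests. The tests were moderated F in limma, or moderated t between times after LPS, adjusted over all genes. Between times, Rpl7l1 differed in burn blood (adjusted p = 0.0165), Rps29, Rpl38 and Rps15 in TH blood (adjusted p = 0.0131, 0.0214 and 0.0322), Rpl7l1, Rpl12 and Rps25 in burn spleen (adjusted p = 1.17e-06, 0.000202 and 0.00022) and Rps27l in TH spleen (adjusted p = 0.0107). Between burn and TH, Rpl38, Rps29 and Rps2 differed in blood (adjusted p = 0.00772, 0.00786 and 0.00922) and Rpl7l1, Rps29 and Rps7 in spleen (adjusted p = 5.46e-05, 0.0383 and 0.0388). Between blood and spleen, Rps27l differed after burn (adjusted p = 0.0177), and Rps27l, Rps29 and Rpl38 after TH (adjusted p = 0.000112, 0.000821 and 0.0015). The tests on Rps29, Rpl38 and Rps15 include the dim injured arrays of TH blood at 7 day or burn spleen at 1 day.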

How the results depend on the processing

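The treatment of array brightness and the choice of probe set changed calls and signs, and signals on dim arrays and of members near the pseudocount are the least precise. Each count below is of members called under the other setting, with the count as reported in parentheses, and the causes were not tested. A pseudocount of 1 and the hybridization day as a block moved no count of calls by over 1.5 times. For the named genes, 62 calls were lost and 38 gained over all comparisons and all settings other than leaving out arrays one at a time, 26 values with a call under one of the 2 settings compared changed sign, and 4450 stayed on the same side of the threshold. Leaving out arrays one at a time lost 52 calls and gained 14.

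Under quantile normalization 28 members were called in TH blood at 1 day (1 as reported), 18 at 3 day (2) and 2 at 7 day (16), with 12 in burn spleen at 1 day (28) and 0 at 3 day (1), and 1, 1 and 2 in TH spleen at 2 hr, 3 day and 7 day (0, 2 and 1). Of all genes, 13.4%, 8.54% and 4.93% then passed in TH blood at 1 day, 3 day and 7 day. In burn spleen at 1 day 49.9% passed. Differences were called for 10 members between times in TH blood (6), 14 in burn spleen (30) and 2 in TH spleen (1), for 2 between injuries in blood (8) and 1 in spleen (4), and for 2 between tissues after burn (1) and 25 after TH (14). The members' median turned to -0.0872 in burn blood at 1 day, -0.22 in TH blood at 7 day and 0.0182 in burn spleen at 3 day. Signs turned in TH blood at 1 day for Rpl10a (-0.57), Rplp2 (-0.33), Rps3 (-0.57) and Rpl38 (-0.26), and at 3 day for Rps3 (-0.46) and Rpl11 (-0.39). At 7 day they turned for Rpl10a (-0.22), Rplp2 (-0.0499), Rps3 (-0.41), Rpl38 (-0.17) and Rps29 (-0.0423). In burn spleen at 1 day they turned for Rpl10a (-0.0137), Rpl22 (-0.20), Rplp2 (-0.0895), Rps3 (-0.17) and Rps19 (-0.11).

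With the control level as a covariate 1, 4, 0 and 0 members were called in TH blood at 2 hr, 1 day, 3 day and 7 day (0, 1, 2 and 16), 6 in burn spleen at 1 day (28), and 1 and 2 in TH spleen at 2 hr and 7 day (0 and 1). Differences were called for 1 member between times in TH blood (6), 7 in burn spleen (30) and 3 in TH spleen (1), for 0 between injuries in blood (8) and 1 in spleen (4), and for 3 between tissues after TH (14). In TH blood at 7 day the median was -0.0319, Rplp0 -0.0086 and Rps3 -0.11. Without the dim arrays 2 members were called in burn blood at 1 day (1), 1, 4 and 0 in TH blood at 2 hr, 1 day and 3 day (0, 1 and 2), 2 and 2 in burn spleen at 2 hr and 1 day (4 and 28) and 1 and 0 in TH spleen at 2 hr and 7 day (0 and 1). Differences were then called for 1, 6 and 3 members between times in TH blood, burn spleen and TH spleen (6, 30 and 1), for 1 between injuries in each tissue (8 in blood, 4 in spleen) and for 3 between tissues after TH (14), and Rpl39 and Rpl39l were at -0.20 and -0.27 in burn spleen at 1 day. In TH blood at 7 day this setting could not be fitted, since all injured arrays are dim, and that time is left out of its difference tests. In TH blood at 3 day and burn spleen at 1 day it leaves 1 injured array, whose spread comes from the rest of the fit.

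With the mean of a gene's probe sets 3 members were called in TH blood at 1 day (1), 2 in burn spleen at 2 hr (4), 1 in TH spleen at 3 day (2) and 0 between times in burn blood (1), with Rps20 at -0.34 in burn spleen at 2 hr and -0.21 in TH spleen at 3 day and Rps24 at 1.02 in burn spleen at 1 day. With the brightest probe set whatever its suffix, an alternative chosen after seeing the data, Rps20 was at -0.38 and -0.20 in those comparisons, Rps24 at 1.02, and 1 member was called in TH spleen at 3 day. With each probe set fitted on its own, also chosen after seeing the data, genes with a call numbered 3 in burn blood at 1 day (1), 4 and 7 in TH blood at 1 day and 3 day (1 and 2) and 4 in TH spleen at 3 day (2), and 3, 10 and 3 between times in burn blood, TH blood and TH spleen (1, 6 and 1) and 14 between injuries in blood (8). With no filter on dim genes 0 members were called in burn spleen at 3 day (1), 1 in TH spleen at 3 day (2) and 1 between injuries in spleen (4). A fit on the 8 arrays alone called 3 members in burn blood at 1 day (1), 2, 0 and 2 in TH blood at 1 day, 3 day and 7 day (1, 2 and 16), 0 and 5 in burn spleen at 2 hr and 7 day (4 and 3) and 1 and 0 in TH spleen at 2 hr and 7 day (0 and 1).

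Replicate numbers do not pair the samples: of 72 same-numbered pairs 20 had deviations correlated above 0.1, with r between -0.468 and 0.531, and in 0 comparisons was this so for every pair. With the replicate block 1 member was called in TH blood at 3 day (2) and 0 in burn spleen at 3 day (1), and differences for 1 between times in TH blood (6), 2 in TH spleen (1) and 11 between injuries in spleen (4).

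Leaving out single arrays gave 1 to 2 calls in burn blood at 1 day, 0 to 1, 0 to 3, 0 to 13 and 7 to 18 in TH blood at 2 hr, 1 day, 3 day and 7 day, 2 to 4, 24 to 29, 0 to 1 and 2 to 3 in burn spleen at 2 hr, 1 day, 3 day and 7 day, and 1 to 3 and 0 to 2 in TH spleen at 3 day and 7 day. In TH blood there were 13 calls at 3 day without injured replicate 3, 0 without injured replicate 4, and 7 at 7 day without injured replicate 3. Differences ran from 2 to 9 between times in TH blood, 24 to 32 in burn spleen and 1 to 2 in TH spleen, from 8 to 17 between injuries in blood, 1 to 17 in spleen, and from 0 to 1 and 6 to 13 between tissues after burn and TH. Without injured replicate 1 of burn spleen at 1 day 1 member differed between injuries in spleen, and without injured replicate 4 there were 17.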
